A study of Mus musculus with 2 samples.

Results

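The interleukins and interleukin receptors described here are the protein-coding genes whose mouse symbol begins with Il and a number. By gene identifier 82 such genes were found in both deposited gene tables, of 21474 protein-coding genes and 43346 genes in all. A symbol with r after the number marks 41 of them, and 41 have another symbol. The split follows the symbol and not the function: Il1rn, a secreted antagonist, falls among the receptor symbols, and Il6st, a signalling receptor chain, among the others. Polyadenylated RNA came from whole lung tissue of 1 adult C57BL/6J female mouse, 10 weeks old, with no treatment or genetic change named in the labels. It was sequenced as 2 libraries, here library 1 and library 2, which are technical replicates 1 and 2 of biological replicate 1. Library 2 was made later, and no condition was compared. The differences below are between technical replicates of 1 animal and do not measure the spread between animals.

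Interleukins are secreted signals between immune cells, and between immune cells and the epithelium, endothelium and stroma of a tissue. Most act on receptors built of a ligand-binding chain and a shared signalling chain. Receptors of the IL-1 and IL-17 families signal through adaptors to NF-kappaB, and most others through Janus kinases and STAT transcription factors. In the lung, IL-33 and IL-18 are known as stored alarm signals of barrier tissue, IL-4 and IL-13 act on airway epithelium, and IL-7 and IL-15 maintain lymphocytes.

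The libraries held 16104442 and 17110882 expected counts, the authors' estimates of reads per gene. Where no read was found, the depth allows a level of up to 3 counts, or 0.186 counts per 1000000 in library 1 and 0.175 in library 2, for counting error only. Levels are given as TPM, transcripts per 1000000 corrected for length. Markers of alveolar type 2 cells (4 of 4), club cells (3 of 3) and alveolar type 1 cells (3 of 3) reached 1 TPM in both libraries. Their levels differed widely, with sums of 2831 and 46640, 22642 and 180243, and 663 and 3840 TPM. Of the endothelial markers, which summed to 1590 and 1211 TPM, 3 of 4 reached it in both, and Cldn5 was at 0.430 and 607 TPM. Cardiac muscle markers reached 1 TPM in both libraries too (2 of 2), while thymocyte markers did not (0 of 3). Markers of 1 cell type did not always move together, so a sum does not stand for each of its genes. Of the 4 alveolar type 2 markers 2 were over 2-fold higher in library 2, 1 lower and 1 within 2-fold. Among them Sftpb was at 48.2 and 2493 TPM and Lamp3 at 687 and 191 TPM. The endothelial marker Calcrl was at 1410 and 242 TPM, against the direction of Cldn5. Whether the sums reflect cell make-up was not tested. In whole tissue, fewer cells of a type and less RNA per cell cannot be told apart.

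A mean of 1 TPM or more was reached by 43 of the 82 genes, or 52.4%, beside 60.6% of all protein-coding genes. Receptor symbols passed more often, with 27 of 41, than other symbols, with 16 of 41. Of the 35 genes that encode ligands, 11 passed and 14 had no read in either library. All genes together summed to 854 TPM in library 1 and 620 TPM in library 2, or 0.0854% and 0.0620% of all transcripts. By role, receptor chains summed to 528 and 472 TPM and ligands to 300 and 103 TPM. The lowest mean to pass was that of Il12rb2, at 2.17 and 0.540 TPM, and the highest to miss was that of Il20rb, at 0.250 and 1.58 TPM.

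**Figure D1:**
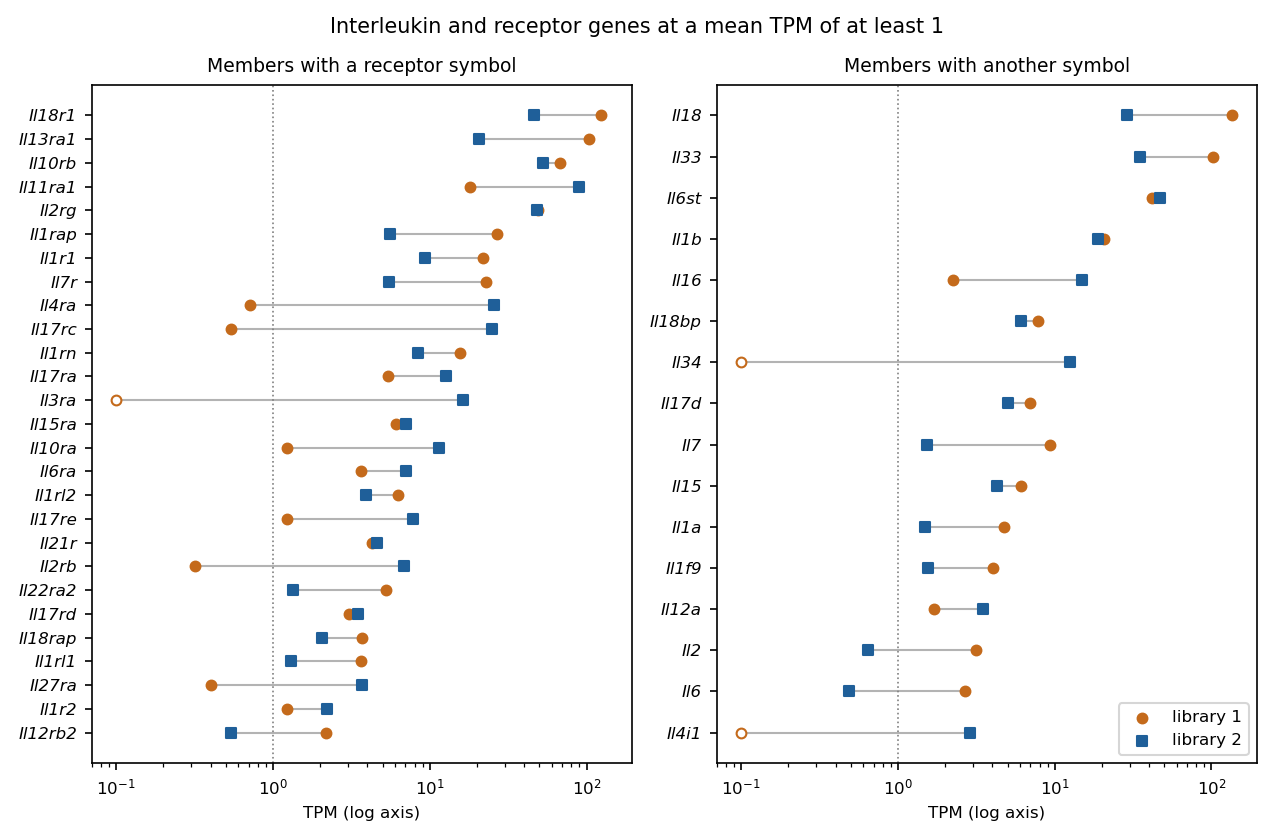
TPM on a log axis in library 1 (circles) and library 2 (squares) for the 43 genes whose mean reached 1 TPM, ordered by mean, with receptor symbols on the left and other symbols on the right. The dotted line marks 1 TPM, and open circles drawn at 0.1 are genes listed at 0 TPM (Il3ra, Il34 and Il4i1). Il18r1 and Il18 lead the panels, and the distance between the libraries ranges from almost none (Il2rg) to over 10-fold (Il4ra).

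The libraries gave different levels for most of these genes. Scaled ratios of library 2 over library 1 were taken from counts, and a gene was called when the ratio passed 2-fold. With 1 library on each side such a call has no replicate check, and its 95% interval (exact, Clopper-Pearson) covers counting error only. Of the 43 genes, 13 exceeded 2-fold in favour of library 2, 15 exceeded it in favour of library 1 and 15 stayed within it. Among all 14139 genes tested, 39.3% were called higher and 28.2% lower, 67.5% in either direction. The median log2 ratio was -0.02 for the 43 genes and 0.19 for all genes tested. A gene that passes the TPM minimum through 1 library alone has to differ, which applies to Il2, Il6 and Il12rb2 in library 1 and to Il4ra, Il17rc, Il3ra, Il34, Il2rb, Il27ra and Il4i1 in library 2. Among the 33 genes at 1 TPM or more in both libraries, 6 were higher and 12 lower, beside 29.4% and 31.5% of all genes detected in both. Among these 33 genes the share higher was below that of all genes, and the share lower was somewhat above it. Whether the family as a whole stood apart was not tested.

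The direction of the difference went with base composition. Ordered by the GC content of their annotated transcripts, the lowest class of the 43 genes (14 genes, 38.8% to 45.1% GC) had 13 genes over 2-fold lower in library 2 and 0 higher, where 80.4% of all tested genes in that GC range were lower. The middle class (15 genes, 45.9% to 51.7%) had 1 higher, 2 lower and 12 within 2-fold, where 18.4% of all genes were higher and 25.1% lower. The highest class (14 genes, 53.0% to 63.7%) had 12 higher and 0 lower, and Il21r and Il17d within 2-fold, where 81.9% of all genes were higher. Of those 12 genes 7 passed the TPM minimum through library 2 alone, and Il2 and Il6 in the lowest class through library 1 alone. Among genes at 1 TPM or more in both libraries, 11 of 12 in the lowest class were lower and 5 of 7 in the highest class were higher, beside 79.9% and 72.0% of all such genes. The members thus followed the pattern of all genes of like GC content. With the trend of all genes on GC content subtracted, 9 of the 43 were over 2-fold higher and 4 lower, beside 22.7% and 20.5% of all genes. Il18r1, Il13ra1, Il1rap, Il7r, Il18, Il33 and Il7 among the genes lower in library 2, and Il11ra1, Il16 and Il17rc among those higher, were then within 2-fold, while 5 genes passed it: Il2rg at a log2 ratio of 1.20, Il1r2 at 1.25, Il12a at 1.15, Il21r at -2.31 and Il17d at -5.49. Across the 43 genes GC content and log2 ratio had Pearson's r = 0.839 and Spearman's rho = 0.895, beside 0.764 and 0.820 across 14067 tested genes with a GC value. These correlations describe genes that share the same pair of libraries, and genes are not independent replicates.

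Coding sequence from genes at both ends of the order of ratios lets the base composition be seen. For the 3 highest and the 3 lowest ratios among genes with at least 100 counts over both libraries, 120 coding bases from the middle of the most abundant coding transcript follow, 5′ to 3′ on the coding strand, from GENCODE M21 (GRCm38). Capitals mark G and C. The first 3 genes were higher in library 2 and the last 3 lower.
Il3ra: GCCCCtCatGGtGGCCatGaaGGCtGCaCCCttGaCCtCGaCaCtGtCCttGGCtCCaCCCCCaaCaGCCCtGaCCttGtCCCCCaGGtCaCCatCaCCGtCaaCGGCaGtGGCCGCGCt
Il34: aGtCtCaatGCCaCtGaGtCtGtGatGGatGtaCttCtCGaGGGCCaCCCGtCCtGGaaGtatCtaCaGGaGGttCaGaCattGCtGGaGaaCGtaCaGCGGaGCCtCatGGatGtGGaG
Il4ra: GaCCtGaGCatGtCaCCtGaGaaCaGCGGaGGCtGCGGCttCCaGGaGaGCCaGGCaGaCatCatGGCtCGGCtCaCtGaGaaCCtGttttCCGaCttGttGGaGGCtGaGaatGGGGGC
Il7: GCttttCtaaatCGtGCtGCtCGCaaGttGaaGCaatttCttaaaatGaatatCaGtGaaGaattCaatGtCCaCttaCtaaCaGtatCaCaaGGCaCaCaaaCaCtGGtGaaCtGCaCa
Il13ra1: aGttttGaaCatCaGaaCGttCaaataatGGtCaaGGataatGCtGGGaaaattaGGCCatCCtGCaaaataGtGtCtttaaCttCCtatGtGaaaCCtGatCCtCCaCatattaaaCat
Il1rap: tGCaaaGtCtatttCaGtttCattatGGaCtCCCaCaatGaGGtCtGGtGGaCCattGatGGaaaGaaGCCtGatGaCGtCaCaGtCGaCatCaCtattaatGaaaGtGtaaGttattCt
The stretch of Il3ra (codons 179 to 218 of 396, exon 6, chr14:14350102-14350221, plus strand) is 65.0% GC. That of Il34 (codons 98 to 137 of 235, exons 5 and 6, chr8:110742771-110748353, minus strand) is 53.3% GC, and that of Il4ra (codons 386 to 425 of 810, exon 11, chr7:125575777-125575896, plus strand) is 59.2% GC. Among the genes lower in library 2, Il7 (codons 37 to 76 of 113, exon 4, chr3:7576004-7576123, minus strand) is 38.3% GC over this stretch. The stretch of Il13ra1 (codons 193 to 232 of 424, exons 5 and 6, chrX:36141307-36144039, plus strand) is 35.8% GC, and that of Il1rap (codons 266 to 305 of 570, exons 7 and 8, chr16:26698847-26701100, plus strand) is 40.0% GC. The 3 stretches of the first set are richer in G and C than the 3 of the second. They are shown as examples only, since Il3ra, Il34 and Il4ra passed the TPM minimum through library 2 alone.

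**Figure D2:**
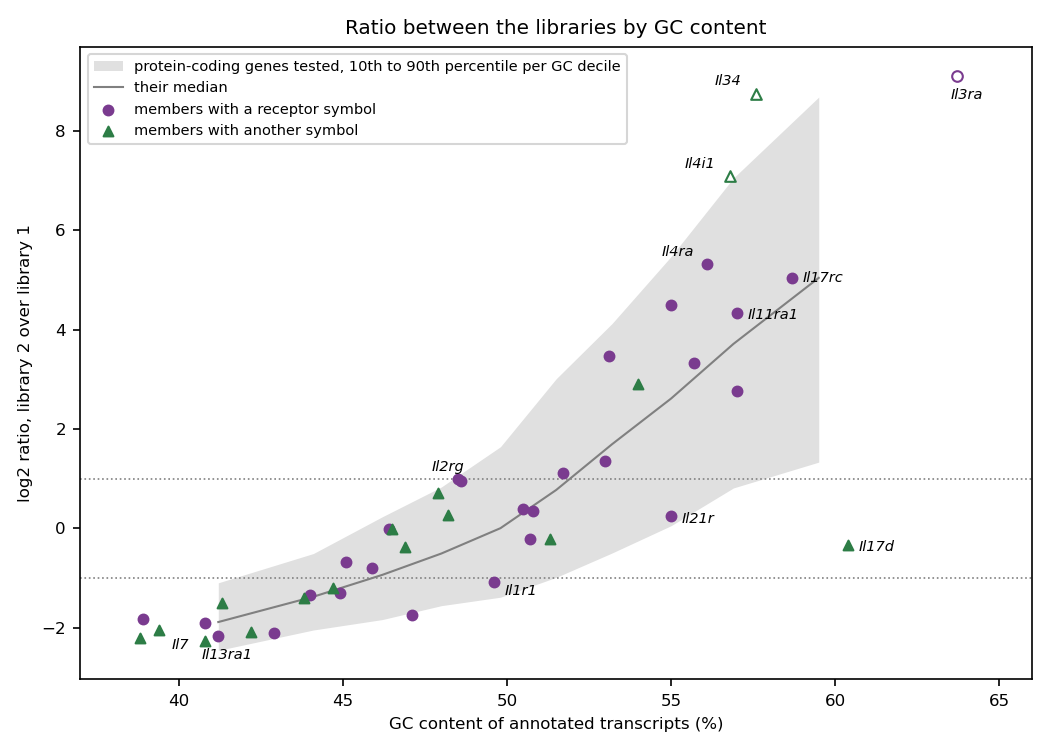
Log2 ratio of library 2 over library 1 against the GC content of annotated transcripts, in percent, for the 43 genes tested (circles, receptor symbols; triangles, other symbols; open symbols, 0 counts in library 1, whose position depends on the prior of 0.5 counts). The grey band spans the 10th to 90th percentile and the line the median of tested protein-coding genes in each GC decile; the dotted lines mark 2-fold. The genes climb with GC content as the band does, with Il17d far below it.

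The IL-1 family held the most abundant ligands. Il18 (chromosome 9, 50554827 to 50581840), an alarm cytokine matured by caspase 1, was at 136 TPM in library 1 and 29.1 TPM in library 2, a mean of 82.6 ± 75.7 (SD, n = 2 libraries). Il33 (chromosome 19, 29925114 to 29960718), a nuclear alarm cytokine of barrier cells, was at 102 and 35.0 TPM. Both were the leading ligands in either library, and both were lower in library 2, Il18 by 4.27-fold (95% interval 3.69 to 4.95) and Il33 by 2.64-fold (2.47 to 2.82). Il1b, the main inflammatory member, differed little between the libraries: it had 20.6 and 18.8 TPM and a ratio of 0.993 (0.843 to 1.17). Il1a was at 4.73 and 1.49 TPM, and Il1f9, which encodes IL-36 gamma, at 4.02 and 1.56 TPM. The ligand genes Il1f6, Il1f8 and Il1f10 had no read. Of the inhibitors, Il1rn, the receptor antagonist, was at 15.7 and 8.36 TPM and Il18bp, which binds free IL-18, at 7.84 and 6.09 TPM. Exons of Il18bp overlap those of Numa1 on the other strand, and whether counting used strand is not given in the sources used here. Noncoding transcripts also lie opposite exons of Il1a, Il1b, Il1rap, Il3ra, Il4ra, Il6ra, Il7, Il16 and Il34, so the levels of all these genes carry that uncertainty.

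The IL-1 receptor genes were led by Il18r1 (chromosome 1, 40465552 to 40500854), the IL-18 binding chain and the receptor gene of highest mean. It had 3923 counts and 124 TPM in library 1 and 2023 counts and 46.5 TPM in library 2, a mean of 85.5 ± 55.2 TPM. Its signalling partner Il18rap was at 3.67 and 2.06 TPM, so the binding chain was 33.9 and 22.6 times the level of its partner. Il1r1, the IL-1 receptor, was at 21.9 and 9.31 TPM, and Il1rap, the signalling chain for IL-1, IL-33 and IL-36, at 26.9 and 5.54 TPM. Il1rl2, the IL-36 receptor, was at 6.24 and 3.92 TPM, Il1rl1, the IL-33 receptor, at 3.62 and 1.30 TPM, and the decoy Il1r2 at 1.22 and 2.20 TPM. The neuronal genes Il1rapl1 and Il1rapl2 had at most 4 counts in a library. Il1r2, with 16 and 41 counts, lay at the 2-fold line, at 2.01-fold higher in library 2 (1.10 to 3.84) from its counts alone and at a log2 ratio of 0.99 with the prior of 0.5 counts. Of the other genes 4 were over 2-fold lower in library 2, among them Il18r1 by 2.47-fold (2.34 to 2.61), Il1r1 by 2.12-fold (1.93 to 2.34) and Il1rap by 4.35-fold (3.85 to 4.91).

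For IL-33 the ligand was far above its receptor in this whole tissue, with 102 TPM of Il33 beside 3.62 TPM of Il1rl1 in library 1 and 35.0 beside 1.30 TPM in library 2. The markers of group 2 innate lymphoid cells, which respond to IL-33, summed to 32.2 and 12.6 TPM over 4 genes. All 4 were at 1 TPM or more in both libraries. The largest part came from Rora in library 1, at 16.8 TPM, and from Areg in library 2, at 4.37 TPM. Of the mast cell markers 3 of 5 were at 1 TPM or more in both, with sums of 49.9 and 33.3 TPM. Most of these sums came from Kit, at 39.8 and 26.8 TPM. Cpa3 was at 6.38 and 1.60 TPM, Mcpt4 at 1.87 and 4.16 TPM, and Fcer1a and Ms4a2 had means under 1 TPM. Both basophil markers were under 1 TPM in both libraries. The part of these cells in the level of Il1rl1 was not tested.

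Receptors of the common gamma chain group were expressed more widely than their ligands. Il2rg (chromosome X, 101264378 to 101268255), the shared chain itself, was at 49.1 and 48.3 TPM. Its counts of 452 and 1108 gave a ratio of 1.92 (1.72 to 2.15), larger than the ratio of its TPM. Its exons overlap the protein-coding gene Gm20489 on the same strand, so reads can be divided between them. Il7r, the IL-7 receptor of lymphocytes, was at 22.7 and 5.49 TPM, 3.73-fold lower in library 2 (3.24 to 4.31). Il2rb, a chain shared by IL-2 and IL-15 receptors, went the other way, with 9 and 269 counts, 0.320 and 6.80 TPM and a ratio of 23.5 (12.2 to 51.9). Il15ra was at 6.07 and 7.02 TPM and Il21r at 4.27 and 4.58 TPM, both close between the libraries, although Il21r departed from the trend on GC content. Il2ra, which marks regulatory and activated T cells, was at 1.08 and 0.600 TPM and Il9r at 0.580 and 0.690 TPM, below the minimum on the mean. Markers of T and NK cells, the main cells with these receptors, summed to 53.9 and 47.2 TPM, with 6 of 7 at 1 TPM or more in both libraries.

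The chains that bind IL-4 and IL-13 differed most in order. Il13ra1 (chromosome X, 36112110 to 36171259) was the second receptor gene by mean, with 4050 counts and 103 TPM in library 1 and 1150 counts and 20.6 TPM in library 2, 4.49-fold lower (4.20 to 4.80). Il4ra (chromosome 7, 125552120 to 125579474), with which it forms the type II receptor, had 39 counts and 0.710 TPM in library 1 and 2000 counts and 25.8 TPM in library 2, a ratio of 40.2 (29.3 to 56.8). Library 1 thus gave 144 times more Il13ra1 than Il4ra, and library 2 gave 1.25 times more Il4ra. Transcripts of Il4ra are 56.1% GC and those of Il13ra1 41.2%. The decoy Il13ra2 had 16 and 0 counts.

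Among the ligands of this group Il7, a survival factor for lymphocytes, was at 9.31 and 1.54 TPM, 4.86-fold lower in library 2 (3.59 to 6.69). Il15, which sustains NK cells, was at 6.11 and 4.26 TPM and lay within 2-fold. Il2 was listed at 3.14 and 0.640 TPM. Its estimates of 33.84 and 9.63 counts are not whole, so part of its reads also matched elsewhere and its level is uncertain. Il4 had 4 and 1 counts, Il13 had 0 and 2 counts, and Il9 and Il21 had none. The common beta chain ligands were as low, with 2 and 1 counts for Il5 and none for Il3. Il3ra (chromosome 14, 14346275 to 14356011), the IL-3 receptor, had 0 counts in library 1 and 310 counts or 16.2 TPM in library 2. That is at least 81.1-fold higher against a floor of 3 counts, and the counting interval reaches down to 65.6-fold. At 63.7% GC its transcripts were the richest of the 43 genes. Il5ra, the eosinophil receptor, was at 0.290 and 0.250 TPM, and of the eosinophil markers Siglecf, which alveolar macrophages also express, was at 19.8 and 8.30 TPM, Prg2 had 0 and 5 counts and Epx had no read.

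In the gp130 group the shared chain was steady by counts, while its 3 tested binding partners were over 2-fold higher in library 2. With the trend on GC content subtracted, all 4 were within 2-fold. Their log2 ratios were then 0.62 for Il6st, 0.69 for Il11ra1, 0.37 for Il27ra and 0.21 for Il6ra. Il6st (chromosome 13, 112464070 to 112510086), which encodes gp130, had 3089 and 4713 counts, 41.9 and 46.7 TPM and a ratio of 1.20 (1.14 to 1.25). Il11ra1 (chromosome 4, 41699989 to 41769474), the IL-11 receptor, had 73 and 1881 counts, 18.1 and 89.2 TPM and a ratio of 20.2 (16 to 25.9). Its exons overlap those of Ccl27a on the other strand, and reads are shared with its near copy Il11ra2, listed at 0 and 12.6 counts, so both levels are uncertain. Il6ra, the IL-6 receptor, was at 3.62 and 7.08 TPM and Il27ra, the IL-27 receptor, whose exons overlap Palm3 on the other strand, at 0.40 and 3.71 TPM. Ligands were scarce: Il6 was at 2.66 and 0.490 TPM from 27 and 7 counts, Il11 and Il27 had 0 counts in library 1 and 4 each in library 2, and Il31 had none.

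The IL-10 group was represented by receptors alone. Il10rb (chromosome 16, 91406164 to 91425834), shared by the receptors of IL-10, IL-22 and interferon lambda, was at 67.7 and 52.5 TPM, a mean of 60.1 ± 10.8 (SD, n = 2 libraries), with a ratio of 0.861 (0.797 to 0.930). Its exons overlap the protein-coding gene Gm21970 on the same strand. Il10ra, the ligand-binding chain of blood cells, was at 1.22 and 11.4 TPM, 11.2-fold higher in library 2 (8.15 to 15.6). Il22ra2, a secreted IL-22 binding protein, was at 5.29 and 1.34 TPM. The epithelial chains Il22ra1, Il20ra and Il20rb had from 0 to 31 counts in a library. Il10 itself had 7 and 3 counts and Il22 had 3 and 0, while Il19, Il20 and Il24 had none.

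Of the IL-12 group, Il12a, the p35 subunit, was at 1.71 and 3.49 TPM, Il12b at 0.320 and 0.260 TPM and Il23a at 0.0800 and 0.110 TPM. Among their receptors Il12rb2, whose exons overlap Serbp1 on the other strand, was at 2.17 and 0.540 TPM, Il12rb1 had 0 and 15 counts and Il23r 15 and 3 counts. At these depths the levels of the last 2 genes rest on few reads.

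Receptors of the IL-17 family were found without most of their ligands. Il17ra, the common chain, was at 5.45 and 12.7 TPM, 2.58-fold higher in library 2 by counts (2.22 to 3.0). Il17rc, its partner for IL-17A and IL-17F, was at 0.540 and 25.1 TPM with a ratio of 34.2 (19.0 to 69.1). The order of these chains was therefore opposite in the libraries. Il17re was at 1.23 and 7.86 TPM, Il17rd at 3.06 and 3.49 TPM, and Il17rb, the IL-25 receptor, at 0.140 and 0.270 TPM. Il17a, Il17f, Il17b and Il25 had no read, and Il17c had 0 and 1 counts. The expressed ligand was Il17d (chromosome 14, 57524777 to 57543166), at 6.95 and 5.01 TPM. Its 81 and 82 counts gave a ratio of 0.794 (0.577 to 1.09), although at 60.4% GC it lies in the class where other genes were higher in library 2. With the trend on GC content subtracted its log2 ratio was -5.49, the largest departure among the 43 genes, followed by Il34 at 4.84. The place of Il34 depends on the prior, since it had 0 counts in library 1. Its log2 ratio before subtraction was 8.75 with a prior of 0.5 counts and 6.76 with a prior of 2 counts.

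Other genes that carry the name encode different kinds of protein. Il16 (chromosome 7, 83642825 to 83745726), whose product includes a ligand of CD4, was at 2.25 and 15.0 TPM, 7.57-fold higher in library 2 (5.97 to 9.72). Its exons overlap Stard5 on the other strand. Il34 (chromosome 8, 110741829 to 110805924), a second ligand of the macrophage receptor Csf1r, had 0 counts in library 1 and 240 counts or 12.6 TPM in library 2, at least 62.8-fold higher at the floor of 3 counts, with a counting interval from 50.7-fold. Csf1r, at 54.2% GC, was at 3.20 and 30.1 TPM, a log2 ratio of 3.40. Tested protein-coding genes from 54.1% to 55.9% GC had a median of 2.61 and a 90th percentile of 5.47. Whether ligand and receptor moved together was not tested. Il4i1, an amino acid oxidase, had 0 and 76 counts, and it shares exons with Nup62 on the same strand, so its reads are uncertain.

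The levels of chains that work together were compared in 17 known complexes, chosen from textbook knowledge with these values already seen. TPM corrects for length but not for base composition, with which the ratio between the libraries moved, so the order of chains that differ in GC content is uncertain. In 5 complexes the chain with the higher level differed between the libraries, and in 12 it was the same. The 5 were the receptors of IL-1 (Il1r1 and Il1rap), of IL-4 and IL-13 (Il4ra and Il13ra1), of IL-11 (Il11ra1 and Il6st), of IL-3 (Il3ra and Csf2rb, the common beta chain) and of IL-17A (Il17ra and Il17rc). By TPM, the chain of higher GC content gained on its partner in library 2 in all 17 complexes, these 5 included. By counts Il21r, of higher GC content than Il2rg, did not gain on it, with ratios of 1.18 and 1.92. The complexes share chains such as Il2rg, Il1rap and Il6st, so they are not independent. Among the 12 others, Il6st exceeded Il6ra by 11.6 and 6.60 times and Il2rg exceeded Il21r by 11.5 and 10.5 times. Il10rb exceeded Il10ra by 55.5 and 4.60 times, which keeps the order but not the size.

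**Figure D3:**
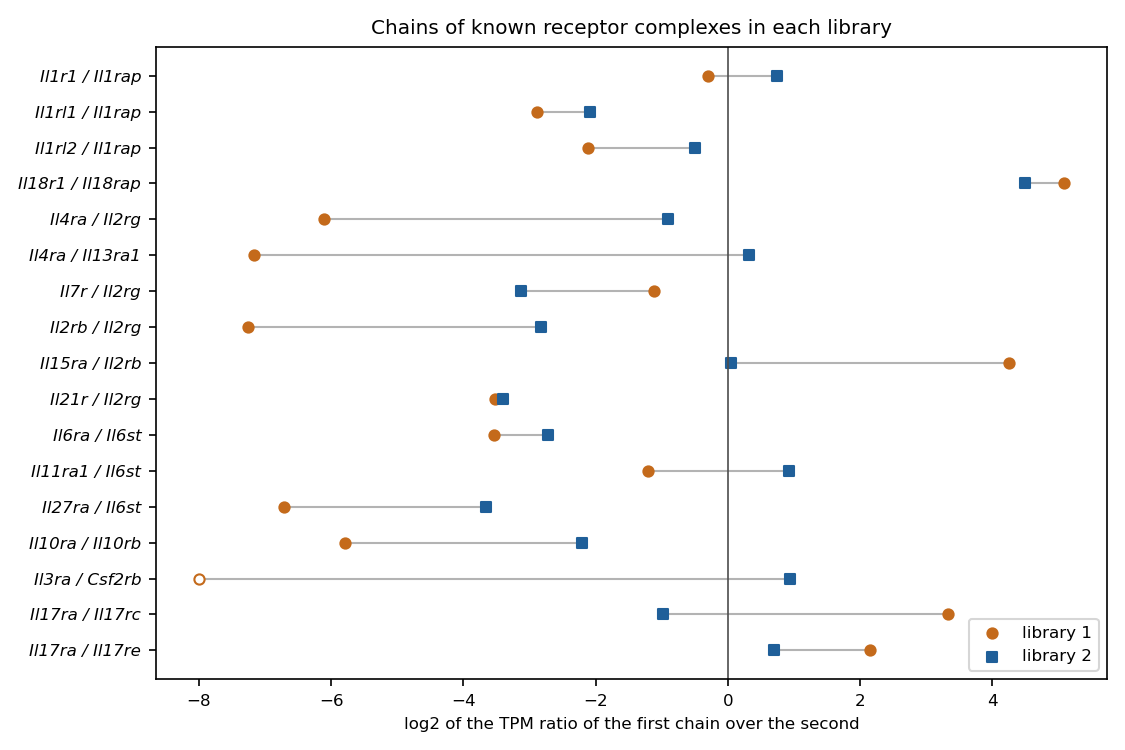
Log2 of the TPM ratio of the first named chain over the second in library 1 (circles) and library 2 (squares) for 17 receptor complexes. The vertical line marks equal levels, and the open circle at the left edge stands for Il3ra, listed at 0 TPM in library 1. Lines that cross the vertical line are the 5 complexes whose order differed; Il18r1 over Il18rap is far to the right in both libraries.

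Several of these genes are neighbours, and some neighbours were expressed alike while others were not. On chromosome 1, from 40074079 to 40551705, Il1r2, Il1r1, Il1rl2, Il1rl1, Il18r1 and Il18rap lie within 478 kb. All 6 reached 1 TPM in both libraries, with means from 1.71 TPM (Il1r2) to 85.5 TPM (Il18r1). The IL-1 ligand cluster on chromosome 2, 24153161 to 24351494, also holds 6 genes, of which Il1rn and Il1f9 alone had reads. In the type 2 cytokine region of chromosome 11, 53602982 to 54267277, Il3, Il4, Il5 and Il13 together summed to 1.02 and 0.320 TPM. Il4ra and Il21r lie within 81.5 kb on chromosome 7 and have similar GC contents of 56.1% and 55.0%, yet their ratios were 40.2 and 1.18.

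Transcript estimates were examined for 27 genes with a mean of 5 TPM or more, of which 18 have over 1 annotated transcript in the deposited tables. The most abundant transcript was the same in both libraries for 13 genes and differed for 4, and 1 gene, Il34, had no reads in library 1. For Il6st a transcript of 8678 bases led in library 1, with 52.8% of the gene's abundance, and one of 5207 bases in library 2, with 60.4%. Both have a coding sequence for 917 amino acids. For Il15ra the leading transcript of library 2, with 58.1%, was at 0 in library 1, where no transcript exceeded 34.5%. For Il11ra1, 99.2% of the abundance in library 1 fell on a 523-base transcript annotated as a retained intron. In library 2 the main transcript was a coding one of 1768 bases, with 61.6%. The level of Il11ra1 in library 1 thus rests on a transcript with no annotated coding sequence. For Il17rc the 11 counts of library 1 fell on 1 transcript, whereas 6 shared the reads of library 2.

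The IL-33 receptor is made in a membrane form and a shorter secreted form. Transcripts of Il1rl1 that encode 567 amino acids held 70.5% and 24.4% in library 1 and 93.4% and 0% in library 2. The transcript that encodes 337 amino acids held 5.04% and 6.62%, at 0.180 and 0.0900 TPM. At 195 and 97 counts in all, these shares rest on few reads. Il33 was assigned to a single transcript in both libraries, with 266 encoded amino acids.

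**Figure D4:**
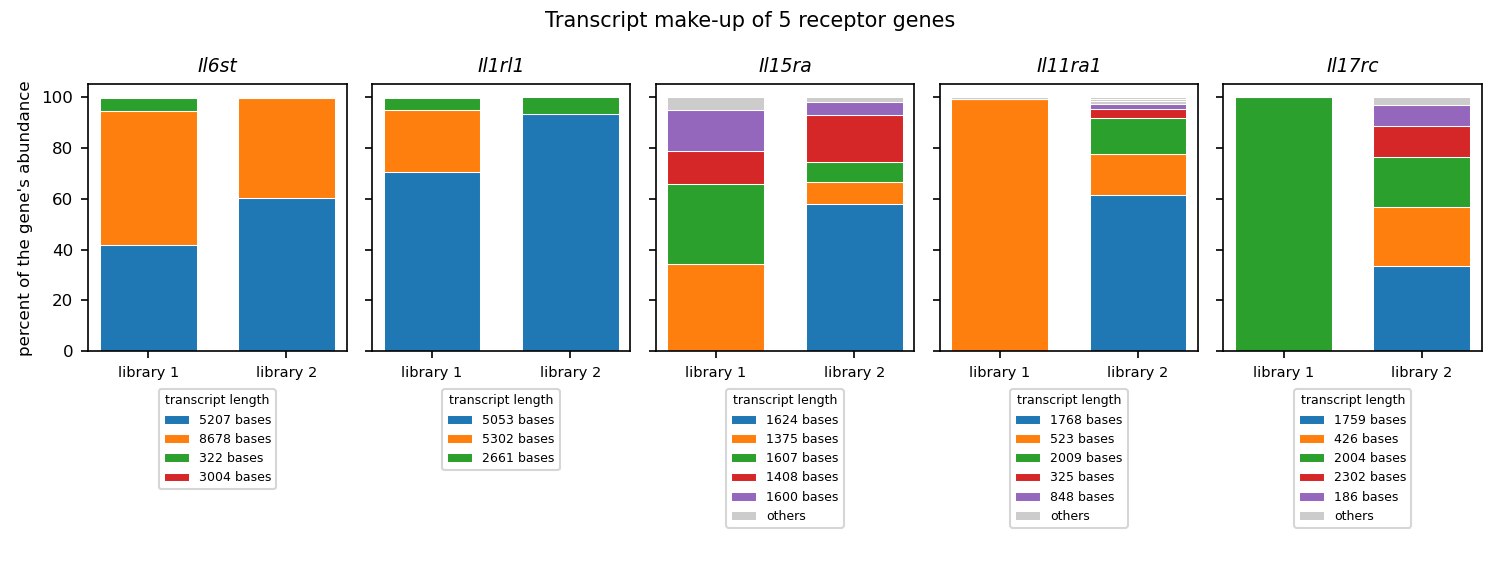
Percent of the gene's abundance held by each transcript in library 1 and library 2 for Il6st, Il1rl1, Il15ra, Il11ra1 and Il17rc, with transcripts named by their length in bases. The leading transcript differs between the libraries in every panel but that of Il1rl1, and in Il11ra1 the 523-base transcript takes 99.2% in library 1.

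Genes that act beside or downstream of these receptors were present, with 43 of 46 listed genes reaching a mean of 1 TPM. Of these 25 were over 2-fold higher in library 2 and 9 lower, beside 39.3% and 28.2% of all genes tested. With the trend on GC content subtracted 10 were higher and 15 lower, beside 22.7% and 20.5% of all genes. Their median log2 ratio was 1.21, or -0.25 with the trend subtracted, with a median GC content of 53.2% beside 50.4% for all genes tested. Janus kinases went in both directions. Jak1, used by most of these receptors, was at 90.8 and 43.8 TPM and Jak2 at 42.6 and 13.1 TPM. Jak3, the partner of Il2rg, had 0 and 465 counts, at least 122-fold higher in library 2 at the floor of 3 counts. STAT factors were found in both libraries (7 of 7), among them Stat6, which serves IL-4 and IL-13, at 32.9 and 39.0 TPM. Of the feedback inhibitors, Socs2 was at 140 and 46.5 TPM and Tollip at 28.1 and 33.7 TPM.

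Partner genes outside the symbol rule followed in both directions. Lifr, which pairs with gp130, was at 41.0 and 12.1 TPM and Osmr at 24.9 and 9.36 TPM, while the other 6 of 8 partner receptor genes were over 2-fold higher in library 2, beside 39.3% of all genes. With the trend on GC content subtracted 2 of the 8 were higher and 4 lower, beside 22.7% and 20.5% of all genes. Tslp, an epithelial cytokine that signals with Il7r, was at 17.2 and 3.14 TPM, 4.99-fold lower (3.60 to 7.03). Ebi3, the partner of Il27, had 0 and 53 counts. Among signalling genes of the IL-1 and IL-17 families Irak1 was at 28.8 and 24.1 TPM and Myd88 at 8.04 and 33.3 TPM. The caspase genes listed with the processing of IL-1 and IL-18, Casp1 at 29.2 and 8.39 TPM and Casp4 at 30.3 and 11.0 TPM, were over 2-fold lower in library 2. In the same list Gsdmd, at 1.40 and 29.4 TPM, and Pycard, at 3.57 and 15.7 TPM, were over 2-fold higher.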

How the data were processed

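The authors deposited an expected count for each gene and transcript, an estimate in which a read with several possible sources is split. TPM was deposited in 2 forms, a point estimate and a posterior mean, and the percent of its gene's abundance per transcript was deposited too. The build is mm10 with annotation M4, per the labels and file descriptions. Aligner and quantifier: not given in the sources used here. Names, positions and sequences came from GENCODE M21 on the same assembly, and 42462 of 43346 genes matched. Counts of 54 of 55 members above 0 in library 1 and 60 of 63 in library 2 lay within 0.005 of a whole number.

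Counts were rounded and scaled by TMM (edgeR 4.0.16, R 4.3.3; factors 0.913 and 1.10) over all genes, and ratios used a prior of 0.5 counts. The ratio was run on simulated counts in which a small part of the genes changed by known folds and no trend on GC content was added. That setting differs from these libraries, so it does not show how well the scaling suits them. Genes whose mean reached 1 TPM were compared, with no p-value, since each side has 1 library. GC content is the mean over a gene's reference transcripts, and the trend on it was a lowess fit with span 0.3. Intervals are exact at 95%.

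Every gene past the TPM minimum is named. Ratios are given for the 8 highest means among receptor symbols and among other symbols, and for the 5 highest and 5 lowest ratios with at least 100 counts, and for further genes chosen after their values were seen. Pathway genes are the 2 of highest mean per list and the 3 highest and 3 lowest ratios, with Csf1r, Gsdmd and Pycard added later; some that this rule names are not reported here. The members and lists were chosen with earlier results of these data known.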

Additional observations from a re-analysis of the deposited data

How the results depend on the processing

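The numbers expressed changed little with the measure. With other thresholds, posterior mean TPM or at least 10 counts in both libraries, 27 to 30 receptor symbols and 12 to 17 other symbols passed, and with 1 library left out 23 to 27 and 14. Of 43 genes tested, 13 to 15 were over 2-fold higher and 13 to 15 lower under DESeq2 size factors, total counts, TPM ratios or a prior of 2 counts. At a mean TPM of at least 10, where 15 genes are left, 3 were higher and 7 lower, and r with GC content was 0.94. The median log2 ratio was then -0.81, beside -0.24 for all genes. The share of all genes called at this filter is not given, so these counts are not read as a trait of the family. With no filter beyond 1 count, 23 of 66 were higher and 21 lower, and the share of all genes called is again not given. The median in that setting was 0.12, beside 0.34 for all genes. With the trend on GC content subtracted, 9 were higher and 4 lower, beside 22.7% and 20.5% of all genes. The median was 0.09, beside -0.02 for all genes. In that setting 12 of 21 named genes moved across 2-fold, among them Il18 at -0.47, Il33 at -0.05 and Il13ra1 at -0.38. Scaling by total counts put the median at 0.24, beside 0.45 for all genes, and moved Il2rg to 1.21 and Il1r1 to -0.82. Without genes that overlap a coding gene or share reads, 9 of 34 were higher and 13 lower, with no share of all genes to set beside them. With the whole 95% interval beyond 2-fold, 12 of 43 were higher and 11 lower, beside 34.7% and 22.6% of all genes tested. Both settings were chosen after seeing the data. No named gene changed direction past 2-fold under these settings. No paired analysis was possible because there is 1 group. Depth limits genes under about 10 counts, and with 1 animal no biological spread can be given.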
